A study of Cavia porcellus with 34 samples.

Results

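The neighbouring diencephalon transcription factors are 10 genes that mark regions around the paraventricular nucleus (PVN): TCF7L2, LHX9, LHX2, FOXP2, LEF1, NR5A1, ONECUT2, FOXB1, LHX5 and EBF3. They were taken by gene symbol, 10 of the 12590 distinct symbols in the series. The F1 and F3 tables held all 10, and the F2 table used here held 9, since FOXP2 was not analysed here in F2. The members were chosen by their sGC and Veh values in all 3 generations and by how they varied together across animals, both known beforehand, so their values are a description. Where a limma threshold or a share of all genes is printed for them, it says where they stood in the fit and supports nothing, since they were picked on the same values.

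The animals were female Dunkin-Hartley guinea pigs (Cavia porcellus) of the paternal line, killed at postnatal day 40. Their F0 ancestor was injected in pregnancy with 3 courses of saline (Veh, the Control of the labels) or of the synthetic glucocorticoid betamethasone at 1 mg/kg (sGC, the Beta of the labels), and the line passed through F1 and F2 males mated with untreated females. F1 animals were exposed as fetuses, whereas F2 and F3 animals descended from exposed males. RNA-seq was performed on 5 Veh and 5 sGC animals in F1, 5 Veh and 5 sGC in F2, and 6 Veh and 6 sGC in F3, each from a frozen-section punch of the anteromedial hypothalamus that contained the whole PVN. The study's methods state that hypothalamic tissue next to the PVN may be present in such a punch. Values are normalized counts, on a scale set separately in each generation, so levels are compared within a generation. The exception is genes near 0 in 1 generation and high in the others, which are described only. Totals of the normalized counts per animal ran from 15573233 to 21935501 in F1, 15645962 to 19435104 in F2 and 18692048 to 18977539 in F3. Of 10 genes listed as markers of PVN neurons, 9 were measured in every generation and none was at 0 in any animal; the neuropeptide transcripts AVP and OXT were among them.

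Transcription factors of this kind divide the embryonic diencephalon into nuclei, and many of them stay on in the mature neurons of the region that they helped to form, which makes their transcripts useful as marks of place. TCF7L2 and LEF1 bind beta-catenin and carry the transcriptional output of Wnt signalling, and TCF7L2 is kept in postmitotic neurons of the thalamus and habenula. LHX9 and LHX2 are paired LIM-homeodomain factors of the developing thalamus, FOXP2 is a forkhead repressor found in thalamic and other neurons, NR5A1 (steroidogenic factor 1) is required to form the ventromedial hypothalamus, and FOXB1 is a forkhead factor of the mammillary region. LHX5 is a LIM-homeodomain factor of the developing hypothalamus, ONECUT2 a cut-homeodomain factor of several neuron classes, and EBF3 a helix-loop-helix factor of differentiating neurons. In RNA from a whole punch, fewer cells of a type and less RNA per cell cannot be told apart.

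In F1, TCF7L2, LHX9, FOXP2 and LHX2 had lower mean values in the sGC animals and NR5A1 and ONECUT2 higher ones, and the groups overlapped for all of these but FOXP2 and ONECUT2. TCF7L2 was 693, 1467, 1070, 5450 and 523 normalized counts in the Veh animals SGM3, SGM7, SGM11, SGM15 and SGM19, and 489, 664, 354, 376 and 542 in the sGC animals SGM4, SGM8, SGM12, SGM16 and SGM20. A single Veh animal, SGM15, stood far above the rest, and 3 of 5 sGC animals lay below the lowest Veh animal. The log2 fold change (sGC minus Veh, difference of the group means of log2 of the normalized count plus 1, with its standard error from the limma fit) was -1.41 ± 0.38 (n = 5 and 5), and it was -0.88 without SGM15.

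LHX9 ranked the Veh animals in the same order as TCF7L2, but not the sGC animals. SGM12 was the lowest sGC animal for TCF7L2 (354) and the highest for LHX9 (127). It was 156, 222, 170, 478 and 85 in the Veh animals, in the order above, and 79, 97, 127, 78 and 80 in the sGC animals, a log2 fold change of -1.05 ± 0.29. SGM15 was again the highest Veh animal, 3 of 5 sGC animals were under the lowest Veh animal, and the log2 fold change was -0.72 without SGM15.

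FOXP2 separated the groups without overlap. The Veh animals held 619, 813, 619, 965 and 390 normalized counts and the sGC animals 341, 308, 367, 375 and 367, or 681 ± 218 against 352 ± 27.5 (SD, n = 5 and 5) and a log2 fold change of -0.89 ± 0.18. The sGC animals were close to each other, whereas the Veh animals spread over more than the gap between the groups. LHX2, the relative of LHX9, was 203, 392, 207, 210 and 131 in Veh and 118, 123, 198, 175 and 221 in sGC, with a log2 fold change of -0.40 ± 0.23. Its groups overlapped, SGM7 rather than SGM15 was the highest Veh animal, and the log2 fold change was -0.19 without SGM7.

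On the other side, ONECUT2 was 108, 90, 108, 58 and 173 in the Veh animals and 307, 334, 354, 370 and 184 in the sGC animals. Every sGC animal was above every Veh animal, although SGM20 at 184 was close to Veh SGM19 at 173. The group means were 107.4 ± 42.0 and 309.8 ± 74.2 (SD, n = 5 and 5), 2.88 times as high in sGC, with a log2 fold change of 1.56 ± 0.23. NR5A1 was 31, 67, 35, 3 and 88 in Veh and 306, 60, 124, 144 and 83 in sGC. The groups overlapped, SGM15 with 3 counts lay far under the rest, and the log2 fold change of 2.0 ± 0.55 was 1.26 without that animal.

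The other 4 members differed little between the F1 groups. The log2 fold changes were 0.33 ± 0.24 for FOXB1, 0.24 ± 0.20 for EBF3, 0.22 ± 0.25 for LHX5 and 0.08 ± 0.15 for LEF1. All 4 overlapped between the groups. FOXB1 had a pair of high sGC animals, SGM8 with 460 and SGM20 with 469, while the other 3 sGC animals held 167 to 203, near the Veh range of 174 to 281. LHX5 was lowest in SGM15, with 82 against 145 to 333 in the other Veh animals, and its log2 fold change without SGM15 was -0.03.

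Of the 10 members, 2 were under the adjusted threshold of 0.05 in F1 (limma, Benjamini-Hochberg over all 11874 genes), where 0.657% of all genes were. ONECUT2 was on the higher side, with 0.606% of all genes, and FOXP2 on the lower, with 0.0505%. With SGM15 left out FOXP2 was no longer under it. At an unadjusted p under 0.05 there were 5 members, beside 13.6% of all genes, and 2 members had groups that did not overlap, beside 2.04% (1.79% with sGC higher and 0.253% with sGC lower). The deposited scale matters for such counts over all genes: 78 genes passed as deposited, 72 of them (92.3%) higher in sGC, and 2058 passed after size-factor scaling, 1006 of them (48.9%) higher. ONECUT2 and FOXP2 were under the threshold on both scales, with log2 fold changes of 1.50 and -0.95 after scaling.

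**Figure D1:**
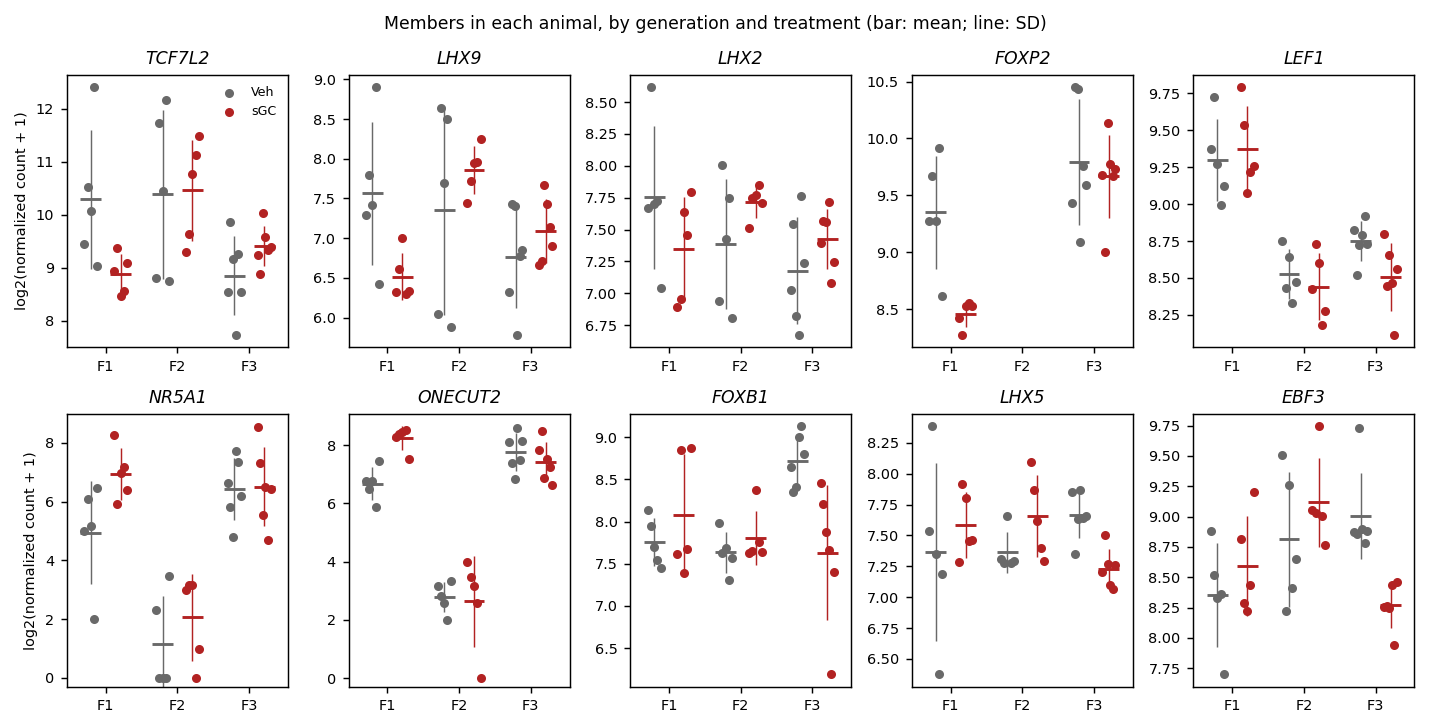
Normalized counts of the 10 members in each animal, as log2 of the count plus 1 (vertical axis), for Veh (grey) and sGC (red) animals of F1, F2 and F3 (horizontal axis); bars are group means and lines the SD. In F1 the sGC animals of FOXP2 (308 to 375) lie under all Veh animals and those of ONECUT2 (184 to 370) above them, in F2 ONECUT2 and NR5A1 are at 15 or fewer, and in F3 the sGC animals of EBF3 (245 to 352) lie under all Veh animals.

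In F2, the thalamic members varied widely inside the groups and did not separate them. TCF7L2 was 448, 3419, 1403, 4606 and 430 in the Veh animals SGM22, SGM23, SGM27, SGM28 and SGM29, and 624, 790, 1742, 2227 and 2872 in the sGC animals SGM21, SGM26, SGM30, SGM24 and SGM25. The Veh animals lay at both ends, 2 of them above every sGC animal and 2 below, and the log2 fold change was 0.07 ± 0.65 (n = 5 and 5), or -0.34 without Veh SGM29. LHX9 was 65, 397, 207, 360 and 58 in Veh and 173, 210, 245, 248 and 303 in sGC, and LHX2 was 122, 256, 171, 214 and 111 in Veh and 182, 214, 218, 230 and 208 in sGC. In both genes the Veh animals SGM22 and SGM29 were the lowest of the table and SGM23 the highest, as a Veh animal, while the sGC animals stayed between the Veh extremes. Their log2 fold changes were 0.51 ± 0.48 and 0.33 ± 0.20, and 0.14 and 0.19 without SGM29.

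The hypothalamic members of F2 overlapped between the groups as well. LHX5 was 154 to 201 in Veh and 156 to 273 in sGC, EBF3 298 to 729 and 434 to 857, FOXB1 158 to 253 and 197 to 331, and LEF1 321 to 430 and 289 to 423. Log2 differences lay between -0.08 (LEF1) and 0.31 (EBF3). None of the 7 members in the fit was under the adjusted threshold, and none of the 11965 genes was either, so the background is 0%; at an unadjusted p under 0.05 there were 0 of 7 members beside 11.7% of all genes (1395), and no member had groups without overlap, beside 2.4%. Oligodendrocyte markers differed in level in this generation: 8 of 8 had lower means in sGC, 7 of them without overlap, and their summed level was 131059 to 237807 in Veh and 69309 to 111804 in sGC, while 0 were under the adjusted threshold and 8 at an unadjusted p under 0.05. The oligodendrocyte marker MOBP was 11940 to 24815 in Veh and 5786 to 8734 in sGC (-0.95 ± 0.18, adjusted p = 0.062 by limma). SOX10, a marker of oligodendrocyte precursors, was 1225 to 1699 and 812 to 1042 (-0.58 ± 0.10, adjusted p = 0.055 by limma). The part of myelin-forming cells in the members' F2 values was not tested.

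ONECUT2 and NR5A1 were near 0 in the F2 table. ONECUT2 was 8, 6, 5, 3 and 9 in Veh and 15, 10, 8, 5 and 0 in sGC, and NR5A1 was 4, 0, 0, 0 and 10 in Veh and 7, 8, 8, 0 and 1 in sGC, in the order of animals above. Their means were under 10, so neither entered the F2 fit, and no fold change is given. In F1 and F3 the same genes had at least 58 and 3 counts in every animal, respectively, and means of 107.4 to 309.8 and 44.8 to 143.4 by group. Of 10058 genes whose mean reached 90 in F1 and in F3 and that were also in the F2 table, 9 had an F2 mean under 10 (0.0895%), and these 2 members were among them; the limit of 90 was set after their values had been seen. The reverse counts were 1 of 10016 genes low in F1 alone and 0 of 10133 low in F3 alone. Other markers of the ventromedial hypothalamus were present in F2: FEZF1, a zinc-finger factor of that nucleus, was 253 to 525 in Veh and 291 to 633 in sGC, and ADCYAP1, the peptide PACAP made by its neurons, 773 to 1209 and 667 to 1450. ONECUT1, the closest relative of ONECUT2, was 33 to 93 in Veh and 22 to 68 in sGC.

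In F3, the differences lay in other members. EBF3 was 440 to 848 in Veh (median 470) and 245 to 352 in sGC (median 305), so every sGC animal was below every Veh animal. The Veh animal SGM17, with 848, stood above the other 5, which held 440 to 477. The log2 fold change was -0.74 ± 0.14 (n = 6 and 6), and it was -0.59 without SGM17. LHX5 was 162 to 232 in Veh (median 200) and 133 to 180 in sGC (median 149), with 5 of 6 sGC animals below the lowest Veh animal. Its log2 fold change was -0.44 ± 0.09.

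FOXB1, the mammillary factor, had the widest F3 difference. It was 324 to 559 in Veh (median 422.5) and 72 to 350 in sGC (median 218), 5 of 6 sGC animals were below the lowest Veh animal, and the log2 fold change was -1.09 ± 0.30. Both sGC animals of the second sequencing batch were among the lowest, with 72 and 168, and within the first batch (6 Veh and 4 sGC) the log2 fold change was -0.67 ± 0.17. The Veh animals SGM5 and SGM9 were re-sequenced in that batch, and the study removed these repeats after its batch correction. The second batch thus added only sGC animals to the deposited values, so no within-batch value can be had from them. EBF3 and LHX5 moved less with the batch, to -0.71 ± 0.15 and -0.40 ± 0.10 within the first batch.

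TCF7L2, LHX9 and LHX2 had log2 fold changes above 0 in F3 and below 0 in F1, while that of FOXP2 was below 0 in both. TCF7L2 was 211 to 928 in Veh (median 474) and 472 to 1045 in sGC (median 655.5), with a log2 fold change of 0.56 ± 0.29 and 1 sGC animal above the highest Veh animal. LHX9 was 54 to 171 in Veh (median 112) and 100 to 202 in sGC (median 129.5), and LHX2 101 to 216 (139.5) and 134 to 209 (177.5). Their log2 fold changes of 0.32 ± 0.26 and 0.25 ± 0.17 were close to their errors, and all 3 genes overlapped between the groups. Without the Veh animal SGM5 the 3 log2 fold changes were 0.34, 0.13 and 0.15. FOXP2, which separated the F1 groups, was 543 to 1400 in Veh (median 815.5) and 513 to 1122 in sGC (median 833.5), a log2 fold change of -0.13 ± 0.23.

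The other members with large F1 differences did not separate the F3 groups. ONECUT2 was 113 to 389 in Veh (median 228.5) and 99 to 360 in sGC (median 167), a log2 fold change of -0.33 ± 0.32 that was -0.09 within the first batch and -0.16 without the Veh animal SGM5. NR5A1 ranged from 27 to 212 in Veh (median 85.5) and from 25 to 371 in sGC (median 87.5), and its log2 fold change was 0.09 ± 0.59, or 0.56 ± 0.59 within the first batch and -0.32 without the sGC animal SGM10. LEF1 was 366 to 483 in Veh and 276 to 445 in sGC, with -0.24 ± 0.10. None of the 10 members was under the adjusted threshold in F3 (limma), where 0.0506% of all 11866 genes were. At an unadjusted p under 0.05 there were 4 members (EBF3, LHX5, FOXB1 and LEF1), all lower in sGC, beside 13.1% of all genes and 6.92% on the lower side, and 1 member did not overlap between the groups, beside 1.21% (0.632% with sGC lower). EBF3 without the Veh animal SGM17, and LHX5 without the Veh animal SGM14, were under the adjusted threshold.

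**Figure D2:**
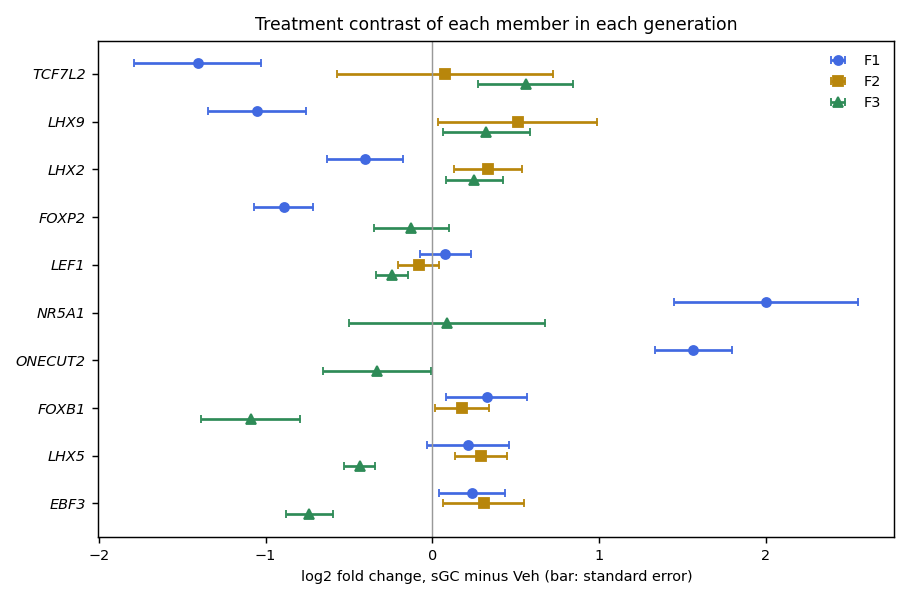
Log2 fold change (sGC minus Veh, horizontal axis) of each member (vertical axis) in F1 (circles), F2 (squares) and F3 (triangles), with standard errors as bars; FOXP2, NR5A1 and ONECUT2 have no F2 point. TCF7L2 runs from -1.41 in F1 to 0.56 in F3, and FOXB1 from 0.33 to -1.09.

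The treatment contrasts of the 3 generations can be set side by side. The log2 fold change of TCF7L2 was -1.41, 0.07 and 0.56 from F1 to F3, and that of LHX9 was -1.05, 0.51 and 0.32. In the same order FOXB1 had 0.33, 0.17 and -1.09, LHX5 had 0.22, 0.29 and -0.44, and EBF3 had 0.24, 0.31 and -0.74. The median over the members was 0.15, 0.29 and -0.19, and that over all genes tested was 0.07, -0.08 and -0.00. Differences between the generations were not tested, since each table was normalized by itself.

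Some members varied widely between animals of the same group. The within-group SD of TCF7L2, on the log2 scale, was 0.97 in F1, 1.31 in F2 and 0.59 in F3, above that of 99.5%, 99.7% and 99.3% of the genes tested in the same table, where the median gene had 0.21, 0.16 and 0.08. NR5A1 had 1.39 in F1 and 1.21 in F3, and LHX9 had 0.67, 0.96 and 0.53. LEF1 was the steadiest member, with 0.28, 0.20 and 0.19. An SD above that of 90% of genes was found for 7 of 10 members in F1, 3 of 7 in F2 (TCF7L2, LHX9 and EBF3) and 8 of 10 in F3.

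Animals were therefore compared around their own group mean. In F1 the Veh animal SGM15 lay 2.12 log2 units above its group mean for TCF7L2, 1.34 above for LHX9 and 0.57 above for FOXP2, and 2.95 below for NR5A1, 0.99 below for LHX5 and 0.79 below for ONECUT2. The Veh animal SGM5 of F3 was its opposite: TCF7L2 lay 1.12 below, LHX9 0.98 below and FOXP2 0.70 below, while NR5A1 was 1.31 and ONECUT2 0.84 above.

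Over all 32 animals, TCF7L2 and LHX9 varied together around their group means, with Pearson r = 0.90 and Spearman rho = 0.84. The r was 0.87 without the 2 animals farthest from the median of TCF7L2, and 0.91 after size-factor scaling. By table it was 0.86, 0.93 and 0.89 from F1 to F3 (10, 10 and 12 animals), but in F1 it was 0.21 without 2 animals, so the F1 value rests on those. LHX2 went with both in F2 (r = 0.88 with TCF7L2 and 0.96 with LHX9) and less so in F3 (0.59 and 0.41) and F1 (0.22 and 0.41). These correlations are descriptions, since the points of a table share its scaling and were normalized by residuals before deposit. The deposited values had 1 direction of near-zero variation between animals in F1, 1 in F2 and 2 in F3. These were counted from the values, and the study does not state how many directions its processing removed.

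FOXP2 belonged to the same set where it was measured. Over the 22 F1 and F3 animals, a grouping chosen after the data had been seen because the F2 fit lacked 3 members, it had r = 0.86 with LHX9 and 0.78 with TCF7L2 (0.78 and 0.68 without 2 animals). In F1 alone, the r of FOXP2 with TCF7L2 was 0.77, and 0.07 without 2 animals, whereas in F3 it was 0.90 and 0.84.

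ONECUT2 and NR5A1 ran against the thalamic set. ONECUT2 had r = -0.84 with FOXP2 over the 22 animals (rho = -0.76, and -0.77 without 2 animals), with -0.79 in F1 and -0.86 in F3, and r = -0.72 with TCF7L2. NR5A1 had r = -0.75 with LHX9 (rho = -0.72, and -0.59 without 2 animals) and -0.67 with TCF7L2, and it went with ONECUT2 (r = 0.65). In F1 alone the values of NR5A1 rested on 2 animals, with r = -0.80 against TCF7L2 and -0.13 without them.

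Among the other members in F3, FOXB1 had r = 0.84 with LEF1 and 0.81 with NR5A1, and without 2 animals these were 0.46 and 0.67. LHX5 ran against FOXP2 (r = -0.75) and TCF7L2 (-0.73), and without 2 animals both were -0.54. In F1 its r was -0.11 with FOXP2, or 0.53 without 2 animals, and -0.41 with TCF7L2, or 0.17. EBF3 had no r past 0.7 with any member in F3, where it was at 0.04 with LHX5, 0.07 with FOXB1 and 0.17 with LEF1, and in F2 it had r = 0.81 with FOXB1, or 0.44 without 2 animals.

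**Figure D3:**
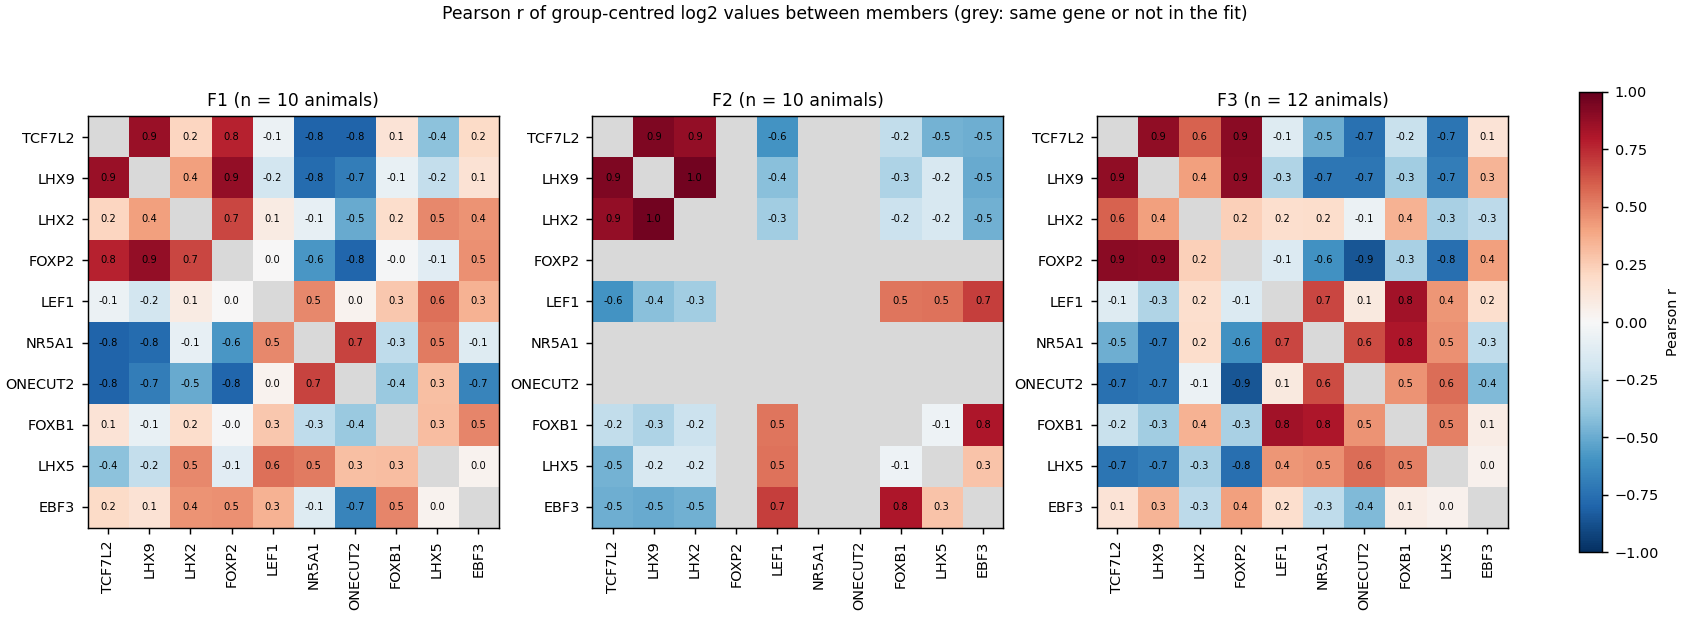
Pearson r between each pair of members in F1 (10 animals), F2 (10) and F3 (12), from log2 values around the group mean; red is positive and blue negative, with r printed in each cell, and grey cells have no value. TCF7L2, LHX9 and FOXP2 form a red block with r from 0.77 to 0.93 where they were measured, and ONECUT2 is blue against each of them.

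Against all pairs of genes, the share of member pairs with r past 0.7 in either direction differed by table. It was 24.4% of 45 pairs in F3, where 5.00% of all gene pairs reached that size and the median r was 0.01, and 15.6% of 45 pairs in F1, where 37.4% of all gene pairs did and the median r was 0.59. In F2 it was 19.0% of 21 pairs beside 19.1%. After size-factor scaling, which took the median r of all pairs to about 0, the shares were 24.4% beside 5.06% in F3, 17.8% beside 8.19% in F1 and 19.0% beside 13.1% in F2. In F3 the count of 11 pairs was 4 without the 2 animals farthest from the median of the first gene of each pair.

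**Figure D4:**
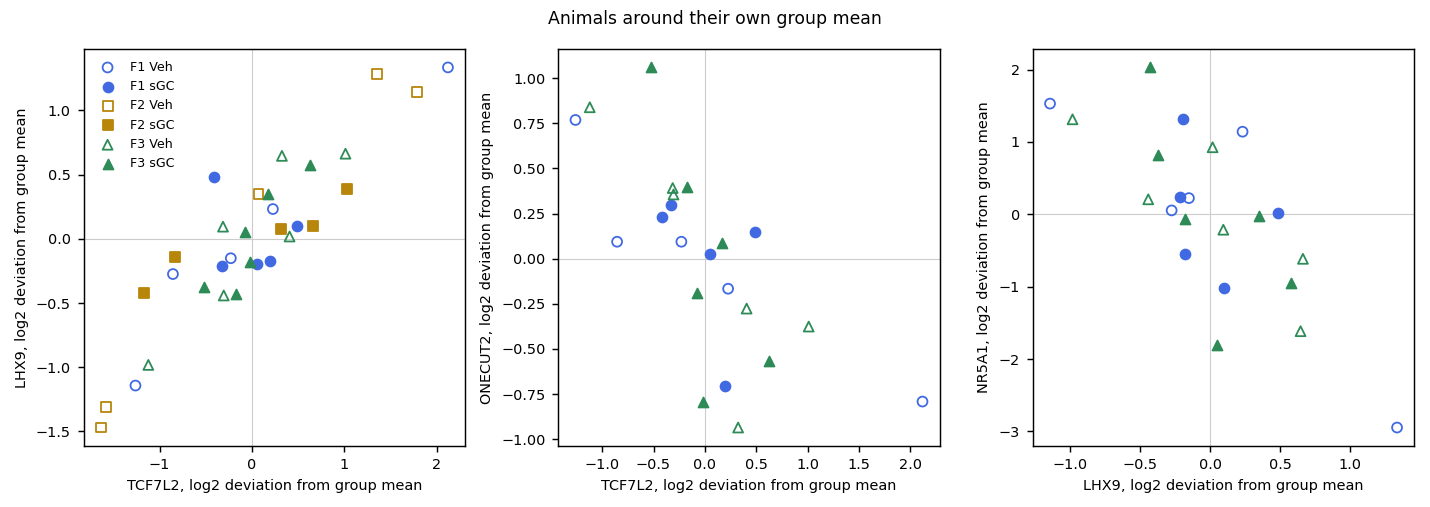
Each point is an animal, placed by its log2 deviation from its own group mean for LHX9 against TCF7L2 (left, 32 animals), ONECUT2 against TCF7L2 (middle, 22 animals) and NR5A1 against LHX9 (right, 22 animals); open marks are Veh and filled marks sGC, and shapes are generations. The left cloud rises (r = 0.90) and the other 2 fall (r = -0.72 and -0.75).

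The genes most like each member, by r over the group-centred values of 32 animals among 11429 genes, included further region markers. For TCF7L2 they were NTNG1 (r = 0.94), a netrin-related axon protein of thalamic neurons, NT5DC3 (0.91) and GPR161 (0.91), and for LHX9 they were TCF7L2, PARVB (0.86) and NT5DC3 (0.86). For FOXB1 they were MYO5B (0.84), TMC3 (0.78) and FAM198B (0.78). EBF3 had NEUROD2 (0.79), a neuronal helix-loop-helix factor, CYP27A1 (0.74) and ORAI1 (0.73), and LEF1 had ST3GAL1 (0.87) and EDEM1 (0.85). LHX2 had the lowest values of the members, with TIAM1 (0.69), AKAP13 (0.68) and YPEL2 (0.68). LHX5 had MRPS6 (0.89), EXD2 (0.88) and HS6ST2 (0.88), which were at 0.73, 0.70 and 0.81 after size-factor scaling.

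For the 3 members outside the F2 fit the search used the 22 F1 and F3 animals and 11539 genes. ONECUT2 was most like C1QL2 (0.86), ENO4 (0.84) and LHX1 (0.81). FOXP2 was most like ZNF804A (0.87), LHX9 (0.86) and CBLN4 (0.85), a cerebellin synapse organizer. NR5A1 was most like RASGRF2 (0.93), PPP1R1C (0.90) and SULF1 (0.88).

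Listed markers of the neighbouring regions were then set beside the members. With TCF7L2, over 32 animals, 4 of 6 thalamus and habenula markers had r above 0, with a median of 0.63 beside -0.25 over all genes. NTNG1 was at 0.94 and GBX2, a homeodomain factor of the thalamus, at 0.87, while CHRNB4, a nicotinic receptor subunit of the habenula, was at -0.75, so the list lay on both sides of 0. By contrast 0 of 6 suprachiasmatic markers had r above 0 (median -0.55), as did 0 of 6 ventromedial markers (median -0.36) and 1 of 10 prethalamic markers, the exception being PAX6 at 0.53. Markers of PVN neurons were on both sides, 6 of 9 above 0 (median 0.10).

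NR5A1 varied with markers of its own nucleus and of others. Over the 22 F1 and F3 animals 5 of 6 other ventromedial markers had r above 0, with a median of 0.71 beside 0.20 over all genes, NPTX2 at 0.84, ADCYAP1 at 0.82 and ESR1 at -0.06. The suprachiasmatic markers were above 0 in 6 of 6 (median 0.36, SIX6 at 0.74), and the mammillary marker LHX1 was at 0.85. Only 1 of 9 PVN markers had r above 0 with NR5A1 (median -0.40). FOXB1 had r under 0 with 9 of 9 PVN markers over 32 animals (median -0.31, beside 0.08 over all genes), and FOXP2 had r above 0 with 9 of 9 over the 22 animals (median 0.48, beside 0.09).

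In the sGC contrast, 3 of the 113 listed genes in the F1 fit were under the adjusted threshold (2.65%, beside 0.657% of all genes), all higher in sGC. At an unadjusted p under 0.05 there were 45 of 113, beside 13.6% of all genes. LHX1, a LIM-homeodomain relative of LHX5 and LHX9 found in the mammillary region and suprachiasmatic nucleus, rose from 296 ± 105 to 582 ± 114 normalized counts (SD, n = 5 and 5), with no overlap between the groups, a log2 fold change of 1.04 ± 0.22 and an adjusted p of 0.025 (limma). RORB and ZFHX3, both transcription factors of the suprachiasmatic nucleus, rose by 0.69 ± 0.16 and 0.63 ± 0.15 on the log2 scale, with adjusted p = 0.043 and 0.047 (limma), and in each 4 of 5 sGC animals were above the highest Veh animal. Without the Veh animal SGM15 none of the 3 was under the threshold. LHX1 had r = -0.79 with TCF7L2 over the 32 animals.

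By region, F1 log2 fold changes were above 0 for 4 of 4 mammillary markers (median 1.53), 5 of 6 suprachiasmatic markers (0.59), 5 of 6 ventromedial markers (0.44) and 7 of 10 prethalamic markers (0.35). They were below 0 for 8 of 9 PVN markers (median -0.64). Of these, 5 were at an unadjusted p under 0.05, beside 13.6% of all genes, and 0 under the adjusted threshold. AVP was at -1.47 ± 0.42 and OXT at -1.54 ± 0.42. The numbers of markers above and below 0 were the same after size-factor scaling. The summed level of the PVN list was 103327 to 230354 in Veh and 33982 to 204459 in sGC. The thalamus and habenula list lay on both sides, with 5 of 8 above 0 and 3 below (median 0.25). At an unadjusted p under 0.05, 4 were higher and 2 lower. Below 0 were GBX2 (-2.39 ± 0.82) and NTNG1 (-0.81 ± 0.21, adjusted p = 0.076 by limma), among others. GBX2 was 11 to 718 in Veh (median 52) and 1 to 53 in sGC. Above 0, CHRNB4 was 114 to 163 in Veh and 167 to 227 in sGC, without overlap (0.52 ± 0.16, adjusted p = 0.12 by limma). CHRNA3 was at 0.60 ± 0.18, RORA at 0.34 ± 0.14 and ADARB1 at 0.34 ± 0.15. Whether the punches held different shares of these regions was not tested. Endothelial markers were above 0 in 6 of 6 in F1 (median 0.36, 0 under the adjusted threshold), with summed levels of 3978 to 6221 in Veh and 4854 to 8957 in sGC, and their part was not tested.

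**Figure D5:**
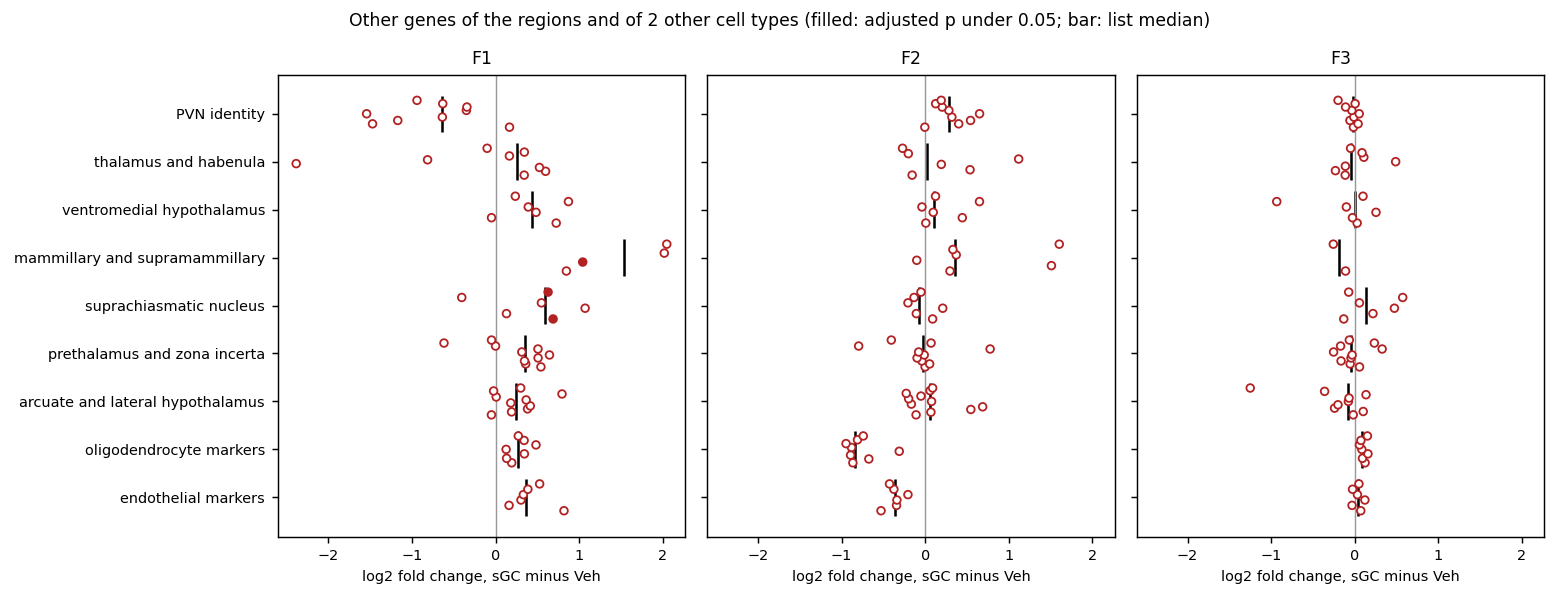
Log2 fold change (sGC minus Veh, horizontal axis) of each listed gene of 7 regions and 2 other cell types (rows) in F1, F2 and F3; filled points are under the adjusted threshold and bars are list medians. In F1 the PVN list lies mostly left of 0 (8 of 9) and the mammillary list right (4 of 4), in F2 the oligodendrocyte list lies left (8 of 8), and in F3 medians are between -0.18 and 0.14.

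In F2 and F3 none of the 115 and 112 listed genes in the fits was under the adjusted threshold (limma). At an unadjusted p under 0.05 there were 26 of 115 in F2, beside 11.7% of all genes, and 15 of 112 in F3, beside 13.1%. PVN markers were above 0 in 8 of 9 in F2 (median 0.28, and 9 of 9 after size-factor scaling) and in 3 of 9 in F3 (median -0.02). Of these 9 markers, 5 were at an unadjusted p under 0.05 in F2, all higher in sGC, and 0 in F3. In F3, where FOXB1 was lower in sGC, NKX2-1, a homeodomain factor of the ventral hypothalamus, was 206 to 465 in Veh and 61 to 351 in sGC (-0.93 ± 0.34, adjusted p = 0.26 by limma). The ventromedial list that holds it had 3 of 6 above 0, FEZF1 at 0.25 among them, and a median of 0.00. The mammillary markers LHX1 and BARHL1 were at -0.26 ± 0.26 and -0.11 ± 0.08. ADARB1, an RNA-editing enzyme on the thalamus list, was without overlap in F3, 1691 to 1825 in Veh and 1587 to 1679 in sGC (-0.11 ± 0.03, adjusted p = 0.096 by limma). Markers of mural cells were above 0 in 4 of 5 in F3 (median 0.33). Their gene ACTA2 was without overlap, 90 to 141 in Veh and 156 to 210 in sGC (0.59 ± 0.12, adjusted p = 0.077 by limma).

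The partners and relatives of the members were taken from the same lists. Of 13 Wnt and TCF partners, which include beta-catenin and the TLE corepressors, none was under the adjusted threshold in any generation, and the list median was 0.10 in F1, -0.09 in F2 and -0.00 in F3 while TCF7L2 was at -1.41, 0.07 and 0.56. NKD1, a Wnt feedback inhibitor, was lower in F2 without overlap, 1225 to 1868 in Veh and 920 to 1181 in sGC (-0.46 ± 0.12, adjusted p = 0.16 by limma). The 7 cofactors of LIM-homeodomain proteins, such as LDB1, had none under the threshold, and medians of -0.02, -0.03 and 0.01. Among family relatives LHX1 alone was under the threshold, in F1; ONECUT1 was at 1.05 ± 0.32 there (adjusted p = 0.13 by limma) beside 1.56 ± 0.23 for ONECUT2, and at -0.21 and -0.01 in F2 and F3. Of the relatives of EBF3 in F3, EBF2 was at -0.33 ± 0.26 (adjusted p = 0.65 by limma). EBF1 was at -0.07 ± 0.14 and EBF4 at -0.07 ± 0.05, and all of these had overlapping groups.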

How the data were processed

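RNA of PVN punches from 32 animals was sequenced by the study (TruSeq V2 libraries). Per the labels and methods, the authors aligned reads to cavPor3 with TopHat2, counted reads per gene, removed outliers, normalized the counts by residuals with RUVSeq (in F3 after ComBat correction of 2 sequencing batches) and tested treatment with edgeR. The deposited values are these normalized counts rounded to whole numbers, a score rather than raw counts, so a count model was not used. The tables also held the authors' log fold change, mean abundance, likelihood ratio, p and adjusted p, which were not used. No column belonged to another series.

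Each generation was fitted separately in R 4.3.3 by limma 3.58.1, sGC against Veh without covariates. The linear fit was moderated with an abundance trend (eBayes) and took log2 of the value plus 1, and a gene entered it when its mean reached 10. P-values were adjusted by Benjamini-Hochberg over all genes, with a threshold of 0.05. The fold change on this scale understates the change of low genes. The scripts were tested on simulated data. Co-variation used Pearson r and Spearman rho of log2 values minus the group mean. Size factors are medians of ratios to the geometric mean over animals. Samples were grouped by the labels' generation and treatment. The members and the marker lists were chosen with earlier results of these data known. Named are all members, the 3 genes most like each (for LEF1, 1 of them is not reported here), and of each list the genes under the threshold, otherwise the gene with the largest log2 fold change that had no overlap and whose mean reached 50; other region genes were named after their values had been seen. How many reads lie behind a normalized count is not known, so no counting interval is given.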

Additional observations from a re-analysis of the deposited data

Results flagged for a closer look

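In 58 groups of 5 or 6 animals, 4 had 1 member value far from the others, where chance gives about 2.9. On the log2 scale ONECUT2 in the F1 sGC animal SGM20 was 7.53 (184 normalized counts) while the other 4 were 8.27 to 8.54, and the F1 log2 fold change was 1.74 without it. LHX5 in the F2 Veh animal SGM27 was 7.66, against 7.28 to 7.31 in the others. FOXB1 in the F2 sGC animal SGM30 was 8.38, against 7.63 to 7.76, and its F2 log2 fold change was 0.03 without that animal. EBF3 in the F3 Veh animal SGM17 was 9.73, against 8.78 to 8.90, and the F3 log2 fold change was -0.59 without it.

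In 2 members every sGC animal lay on one side of the mean log2 value of the Veh animals in 1 generation and on the other side in another; these differences were not tested. The log2 fold change of TCF7L2 was -1.41 in F1 and 0.56 in F3, or 0.34 in F3 without Veh SGM5. That of LHX9 was -1.05 in F1 and 0.51 in F2, or 0.14 in F2 without Veh SGM29.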

How the results depend on the processing

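The 27 fold changes of the members were refitted 472 times in all. The settings were a pseudocount of 0.5 or 5, no filter or a mean of at least 50, and size factors. Further settings were the near-zero directions as covariates, the F3 batch, and each animal left out. Each value moved by less than 1 within-group SD, and none that was under the threshold changed sign. In groups of 5 or 6, leaving out 1 animal cannot move a fold change that far, so those refits could not fail this limit. With 1 animal left out, TCF7L2 in F2 changed sign in 5 of 10 refits and NR5A1 in F3 in 4 of 12. FOXP2 in F3 did so in 3 of 12, and LHX5 and LEF1 in F1 in 1 of 10 each. Members under the threshold in F1 numbered 1 to 3 with 1 animal left out (1 without Veh SGM15), 0 in F2 throughout, and 0 to 1 in F3. Listed genes under the threshold in F1 were 3, and 9 with size factors; with 1 animal left out they were 0 (without Veh SGM15) to 13 (without sGC SGM12). In F2 they were 0, and 1 (SOX10) with a mean of at least 50; with 1 animal left out they were 0 to 10 (without Veh SGM28). In F3 they were 0 throughout. Member pairs with r past 0.7 in F3 were 11, and 4 without the 2 animals farthest from the median. The other counts stayed within 1.5 times, but an equal count did not mean the same pairs. In F1 it was 7 with and without the 2 animals, mostly for different pairs. Only ONECUT2 with FOXP2 and ONECUT2 with TCF7L2 were past 0.7 both times. Without the 2 animals the r of TCF7L2 with LHX9 went from 0.86 to 0.21 and that of FOXP2 with LHX9 from 0.88 to 0.34. That of FOXP2 with LHX2 went from 0.67 to 0.90. The causes were not tested. No paired analysis was possible because the animals' numbers are not shared between the groups of a generation. Groups of 5 or 6 animals, the wide spread of TCF7L2 and NR5A1, and values near 0 in F2 limit what can be seen.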

Other observations

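The 9 genes whose mean reached 90 in F1 and F3 but was under 10 in F2 were CDK6, GP1BA, MAGIX, NR5A1, ONECUT2, RNASE_MRP, RNASEP_NUC, SPEM1 and SYCE1L. They were chosen after their values had been seen.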
